A study of Homo sapiens with 12 samples.

Results

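The genes described here encode the mitochondrial ribosomal proteins, taken as every gene of the count table whose symbol is MRPL or MRPS followed by a number and at most 1 letter, with pseudogenes left out. There were 78 such genes among 60707, of which 49 carry the large subunit symbol MRPL and 29 the small subunit symbol MRPS. RNA came from Raji cells, an established human Burkitt lymphoma line of B-cell origin, that carry an auxin-inducible degron for SMARCA4, an ATPase subunit of SWI/SNF chromatin remodellers. In all, 4 groups of 3 libraries each were collected at 24 h: GFP-low cells given FX1, GFP-low cells given DMSO, GFP-high cells given FX1 and GFP-high cells given DMSO. FX1 inhibits BCL6, a transcriptional repressor of germinal centre B cells, and DMSO is its vehicle. All 12 libraries share the genotype label Smarca4+/+ and the degron system. What the GFP signal stands for in terms of SMARCA4 protein, whether each group received auxin, and whether replicate libraries were separate cultures are not given in the labels. The p-values therefore cover the spread among these libraries alone, and that spread may be technical. All results come from 1 line.

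Mitochondria carry their own ribosomes, which translate the few messages of the mitochondrial genome into membrane subunits of the respiratory chain and the ATP synthase. Each mitoribosome joins a small subunit, which reads the message, to a large subunit, which forms the peptide bond and feeds the new chain into the inner membrane. The ribosomal RNAs come from the mitochondrial genome, whereas every protein is encoded in the nucleus, made in the cytosol and imported. Some of these proteins have a counterpart in bacterial ribosomes and others were added during mitochondrial evolution. Proteins that find no partner in the subunit are generally degraded, so RNA levels need not equal protein levels. Of the 78 genes, 44 have a bacterial counterpart and 33 are mitochondrion-specific. MRPS36 keeps its ribosomal symbol but its product is now known as a subunit of the 2-oxoglutarate dehydrogenase complex. MRPS18A and MRPS30 carry small subunit symbols although their products sit in the large subunit.

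Promoter sequence was available for 69 of the 78 genes, as the 300 bases from 250 before to 50 after the RefSeq gene start (GRCh38.p14). Those without an entry were MRPL2, MRPL10, MRPL13, MRPL15, MRPL21, MRPL23, MRPL35, MRPS28 and MRPS36. The sequences shown belong to genes with large changes with FX1: MRPS12, MRPS17 and MRPL12, which rose past 1.5-fold in GFP-high cells, and MRPL46, which fell in both gates and lies head to head with the rising MRPS11. Capitals mark matches, on either strand, to motifs searched in all promoters, namely AAGATGGCG for YY1, GCGCATGCG for NRF1 and TGACGTCA for the cyclic AMP response element (CRE), and the shorter CCGGAAG for factors of the ETS family, GGGCGG for factors of the SP family, CACGTG for the E-box bound by MYC and others, the CCAAT box of NF-Y, and TATAAA for the core promoter element TATA.
MRPS12, chr19:38930694-38930993, plus strand: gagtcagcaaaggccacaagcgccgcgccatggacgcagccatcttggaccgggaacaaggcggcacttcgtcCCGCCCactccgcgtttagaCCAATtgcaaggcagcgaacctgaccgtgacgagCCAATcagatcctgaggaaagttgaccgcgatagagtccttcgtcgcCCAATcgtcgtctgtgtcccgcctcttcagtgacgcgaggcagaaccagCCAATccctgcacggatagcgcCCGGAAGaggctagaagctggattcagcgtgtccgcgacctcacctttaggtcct
MRPS17, chr7:55951627-55951926, plus strand: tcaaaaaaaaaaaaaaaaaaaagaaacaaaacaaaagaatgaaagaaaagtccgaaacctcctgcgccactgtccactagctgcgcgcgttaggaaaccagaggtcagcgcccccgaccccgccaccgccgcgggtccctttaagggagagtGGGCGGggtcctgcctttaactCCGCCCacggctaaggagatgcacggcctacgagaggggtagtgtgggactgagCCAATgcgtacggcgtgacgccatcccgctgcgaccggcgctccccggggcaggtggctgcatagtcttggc
MRPL12, chr17:81703117-81703416, plus strand: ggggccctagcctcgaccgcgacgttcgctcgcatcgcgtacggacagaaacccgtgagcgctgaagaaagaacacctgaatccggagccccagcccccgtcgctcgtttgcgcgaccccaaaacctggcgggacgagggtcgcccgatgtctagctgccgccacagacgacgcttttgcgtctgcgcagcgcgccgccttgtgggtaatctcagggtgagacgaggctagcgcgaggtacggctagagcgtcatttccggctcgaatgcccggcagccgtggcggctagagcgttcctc
MRPL46, chr15:88467339-88467638, minus strand: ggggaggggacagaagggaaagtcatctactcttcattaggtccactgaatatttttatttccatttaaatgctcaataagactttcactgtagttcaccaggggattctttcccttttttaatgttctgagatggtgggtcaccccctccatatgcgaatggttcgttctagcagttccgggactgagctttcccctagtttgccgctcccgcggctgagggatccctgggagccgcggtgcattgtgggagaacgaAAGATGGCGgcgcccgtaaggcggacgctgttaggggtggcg
MRPS12 held 4 CCAAT matches, an SP match and an ETS match, MRPS17 held 2 SP matches and a CCAAT match, MRPL46 held a YY1 match just after the gene start, and MRPL12 matched none of the 8 motifs. No motif's letters contain another's.

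Across the 69 promoters, the ETS motif was present in 29 (42.0%), against 14.2% of 15843 protein-coding promoters and 10.7% of all 27305 promoters. ETS letters are bound by the nuclear respiratory factor GABP among other factors. The YY1 motif was present in 13 (18.8%), against 2.74% of protein-coding and 1.85% of all promoters. NRF1 letters were found in 4.35%, against 2.76% and 2.1%, SP letters in 60.9%, against 58.5% and 44.6%, and the E-box in 8.7%, against 8.88% and 7.43%. CCAAT was found in 20 of 69, against 36.4% and 35.7%, and TATA letters in 2.9%, against 9.63% of protein-coding promoters. CRE letters were in 0 of 69, against 2.59% and 1.98%, which says only that these letters are not in these windows. Large and small subunit promoters held the ETS motif in 40.5% and 44.4% and the YY1 motif in 19.0% and 18.5%. These matches are descriptions of sequence and not of binding. The median change with FX1 in GFP-high cells was -0.02 on the log2 scale for the 28 tested genes with the ETS motif and -0.04 for the 40 without it. In GFP-low cells these medians were 0.03 and -0.04. For the YY1 motif they were -0.10 with it (13 genes) and -0.01 without (55 genes) in GFP-high cells, and -0.11 and 0.01 in GFP-low cells. Other motifs had gaps as large. For the E-box the medians were -0.24 with it (6 genes) and -0.01 without (62 genes) in GFP-high cells, and -0.20 and 0.01 in GFP-low cells. For the SP motif they were 0.06 (41 genes) and -0.08 (27 genes), and 0.01 and -0.06. Differences by motif were not tested.

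Libraries held 20454028 to 42556661 counts, and the mitochondrial ribosomal protein genes took 0.413% to 0.447% of them. All 8 B-cell markers were present (PAX5 at 289 to 364 CPM, MS4A1 at 395 to 890.4 CPM, where CPM is the count scaled to a common library size by TMM), whereas the 7 T and NK cell markers summed to 2.52 to 7.54 CPM and the 7 myeloid markers to 2.00 to 6.44 CPM. The B-cell markers together had 3509 to 3523 CPM in GFP-low FX1, 5006 to 5037 in GFP-low cells given DMSO, 3932 to 3965 in GFP-high cells given FX1 and 5808 to 5878 in GFP-high DMSO. Of these 8 markers, 2 rose and 4 fell with FX1 in GFP-low cells and 4 rose and 4 fell in GFP-high cells. In GFP-low against GFP-high cells 2 were higher and 4 lower under FX1, and 4 and 4 under DMSO. The part of these markers in the results below was not tested. Among epithelial and stromal markers KRT18 was at 0 and COL1A1 at 8.09 to 17.2 CPM. Counts between libraries of a group varied 1.67 to 1.94 times as much as random sampling of reads would give, and no pair differed by sampling noise alone. Because the spread was so small, changes of a few percent passed the test, and sizes are given beside calls. In bulk RNA, fewer cells of a type and less RNA per cell cannot be told apart.

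Levels are given in TMM-scaled CPM, and for comparison between genes in CPM per kilobase of exon. After the low-count filter 77 of the 78 genes were tested. MRPL53, a large subunit protein, was not: it had 0.111, 0.135 and 0.0459 CPM in GFP-low FX1, 0.180, 0.0634 and 0.121 in GFP-low DMSO, 0, 0.102 and 0 in GFP-high FX1, and 0.0893, 0.156 and 0.0425 in GFP-high DMSO. In all 4 groups it was close to the floor, and 99.4% of its annotated exon bases overlap CCDC142 or another gene, so its reads cannot be told apart from those genes' and its own level is unknown. Among the other large subunit genes the mean level per kilobase ran from 1.21 to 88.0 CPM per kb with a median of 17.5 (48 genes). Small subunit genes ran from 0.721 to 71.8 with a median of 19.1 (29 genes).

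The most abundant large subunit RNAs per kilobase were MRPL51 (88.0 CPM per kb), MRPL18 (69.7) and MRPL3 (59.9), the last a counterpart of a bacterial core protein. The most abundant small subunit RNAs were MRPS34 (71.8 CPM per kb), MRPS35 (49.5) and MRPS16 (47.5). The lowest tested were MRPL46 (1.21 CPM per kb) and MRPL38 (1.99) in the large subunit, and MRPS24 (0.721), MRPS18C (5.31) and MRPS11 (6.44) in the small. Among these, 45.1% of MRPL38's exon bases, 40.2% of MRPS18C's and 23.2% of MRPS24's also belong to another annotated gene. The length used was that of all annotated exons together. In total 41 of the 78 genes share some exon bases with another gene, 3 of them (MRPL53, MRPL12 and MRPS18A) most of their bases. Pseudogene copies took few reads: MRPS31P5 had 6.97% of the level of MRPS31 and MRPS31P4 1.69%, MRPL37P1 had 1.57% of the level of MRPL37, and MRPL40P1 had 1.80% of the level of MRPL40. The other pseudogene records, 79 with these 4, lay at or below 1% of their parent.

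**Figure D1:**
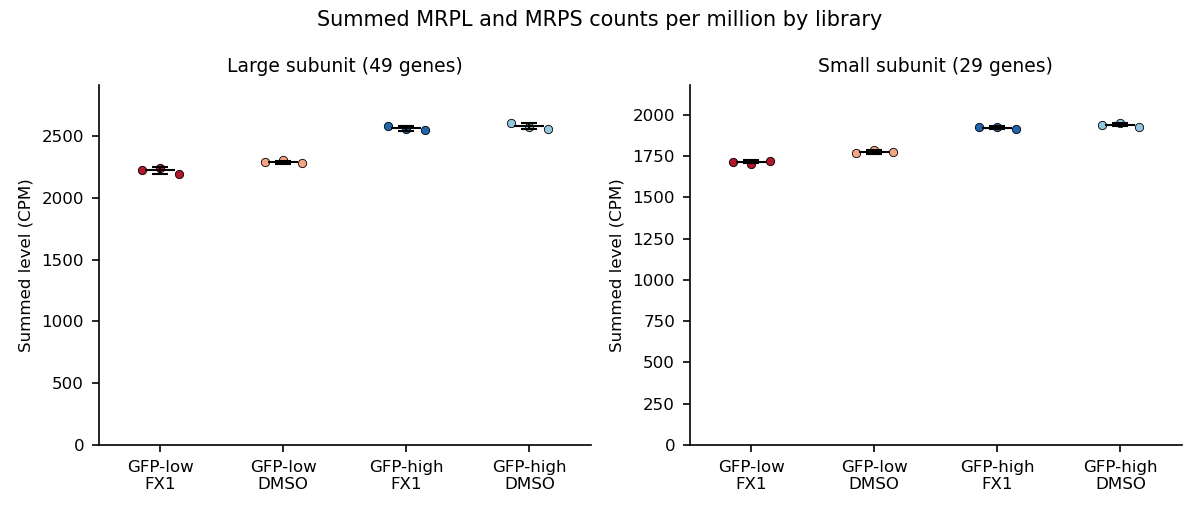
Summed level in CPM of the 49 large subunit genes and the 29 small subunit genes in each of the 12 libraries, with bars for the mean and SD of 3 libraries. The GFP-low libraries sit below the GFP-high libraries for both subunits on the TMM scale, and FX1 and DMSO lie close within each gate.

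The summed level of all 78 genes was 3936 ± 19.1 CPM in GFP-low FX1, 4065 ± 20.5 in GFP-low DMSO, 4484 ± 22.2 in GFP-high FX1 and 4518 ± 29.3 in GFP-high DMSO (SD, n = 3 each). The plot of summed levels by library shows no overlap between the gates for either subunit. As a share of all counts, without TMM scaling, the genes took 0.418% ± 0.00154, 0.415% ± 0.00241, 0.444% ± 0.00207 and 0.419% ± 0.00248 in the same order. On that scale the GFP-low DMSO and GFP-high DMSO means lay much closer, so the size of the difference between gates under DMSO depends on the scaling. Large subunit RNA outweighed small subunit RNA by 1.30 ± 0.0222, 1.29 ± 0.00413, 1.33 ± 0.00879 and 1.33 ± 0.0120 in the same order, a ratio within each library that no scaling changes. By exact permutation over the libraries, 3 against 3 cannot give a two-sided p below 0.10, and no test of these sums is given. Placing MRPS18A and MRPS30 in the large subunit and leaving out MRPS36 made the ratio 1.503 ± 0.0212, 1.49 ± 0.000843, 1.59 ± 0.00694 and 1.54 ± 0.0112.

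With FX1 in GFP-high cells the genes moved in both directions and mostly by little. The comparison asks what FX1 did to cells of that gate. Of 77 tested genes, 29 rose and 27 fell by edgeR's quasi-likelihood test at an adjusted p of 0.05, or 37.7% and 35.1%. Of all 17859 genes tested, 33.8% rose and 34.6% fell, so the shares were close to the background. Their median log2 change was -0.03 with quartiles of -0.18 and 0.24, against -0.01 with quartiles of -0.46 and 0.38 over all genes. Tested against a floor of 1.5-fold, 3 genes passed, MRPL12, MRPS12 and MRPS17, all higher (3 of 77, against 20.6% of all genes in either direction). The large subunit had 17 risers and 16 fallers among 48 genes (median -0.02), and the small subunit 12 and 11 among 29 (median -0.04). The split moved with the scaling, to 38 higher and 17 lower when libraries were scaled by their totals. Under library totals the median of all genes also moved, to 0.09, and 12359 of 17859 genes were called in either direction. The split of the members was 33 and 19 after correction for GC content and transcript length in each library. After that correction 6514 rose and 5565 fell of all 17557 genes with a GC value.

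In GFP-low cells FX1 gave a similar picture. There 26 of 77 genes rose and 33 fell (33.8% and 42.9%), against 33.7% and 34.3% of all genes. After the GC and length correction 34 rose and 21 fell, against 6335 and 5239 of all 17557 genes with a GC value. The median log2 change was 0.00 (quartiles -0.24 and 0.20), against -0.01 (-0.42 and 0.40) over all genes. Past the 1.5-fold floor were MRPL38 and MRPS12, 2 of 77, against 20.2% of all genes. Risers and fallers numbered 17 and 21 of 48 in the large subunit and 9 and 12 of 29 in the small, with medians of 0.00 and -0.00. The subunit medians lay 0.01 apart in each gate. After the GC and length correction the medians were 0.02 in the large subunit (19 risers and 15 fallers) and 0.12 in the small (15 and 6) in GFP-low cells, and 0.05 (16 and 10) and 0.16 (17 and 9) in GFP-high cells. The difference between subunits was not tested.

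**Figure D2:**
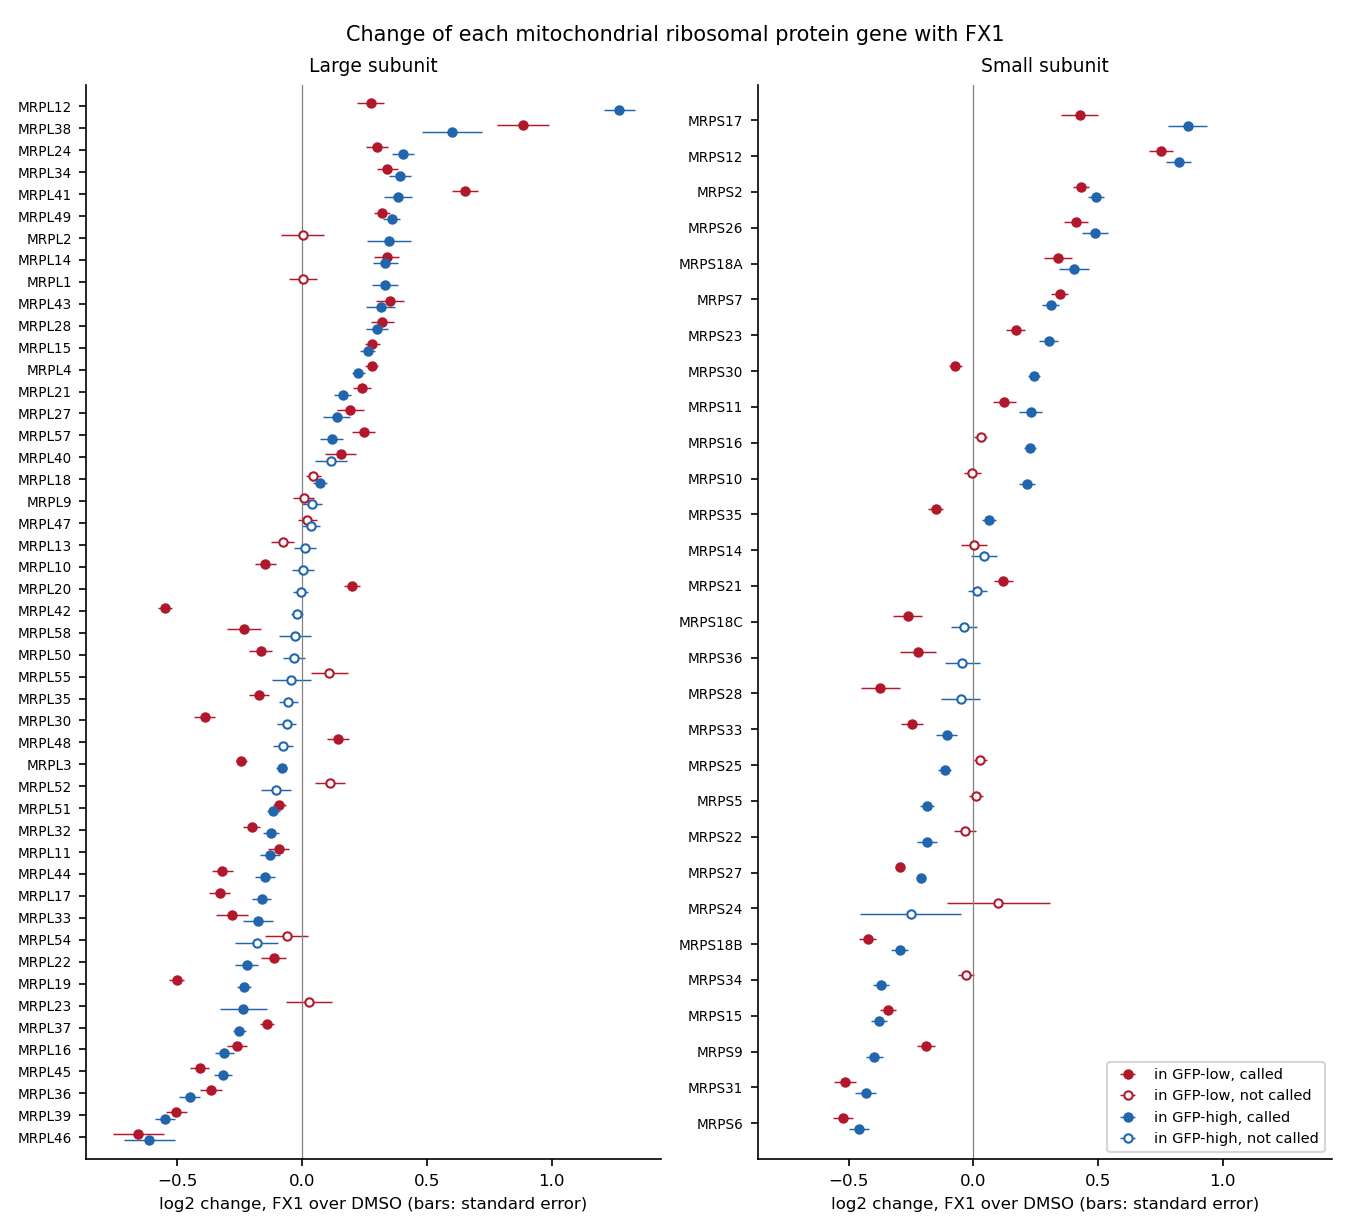
Log2 change of each of the 77 tested genes with FX1 over DMSO, for the large subunit at left and the small subunit at right, in GFP-low cells (red) and GFP-high cells (blue). Bars are standard errors and filled points passed the test. MRPL12 stands apart at the top in GFP-high cells only, and most other genes lie within 0.5 of zero in both gates.

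The FX1 effects in both gates, which share no library, are described across the 77 genes by a Pearson correlation of 0.791 and a Spearman correlation of 0.802. Over all tested genes these were 0.829 and 0.806, and genes of a library are not independent replicates. Of the tested genes, 22 rose in both gates, 22 fell in both, 8 passed in neither and 2 moved in opposite directions. Those were MRPS30 and MRPS35, both with small subunit symbols, though the product of MRPS30 sits in the large subunit. MRPS30 rose by 0.24 ± 0.024 (log2, SE) in GFP-high cells and fell by 0.07 in GFP-low cells, where the call was lost without GFP-low FX1 replicate 1 (-0.06) or GFP-low DMSO replicate 3 (-0.06) and the GC and length correction gave 0.28. MRPS35 was at -0.15 ± 0.030 in GFP-low cells and 0.06 ± 0.028 in GFP-high cells, and the correction turned its GFP-low call to 0.14. Rising in both gates were 14 large and 8 small subunit genes, and falling in both 15 and 7.

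**Figure D3:**
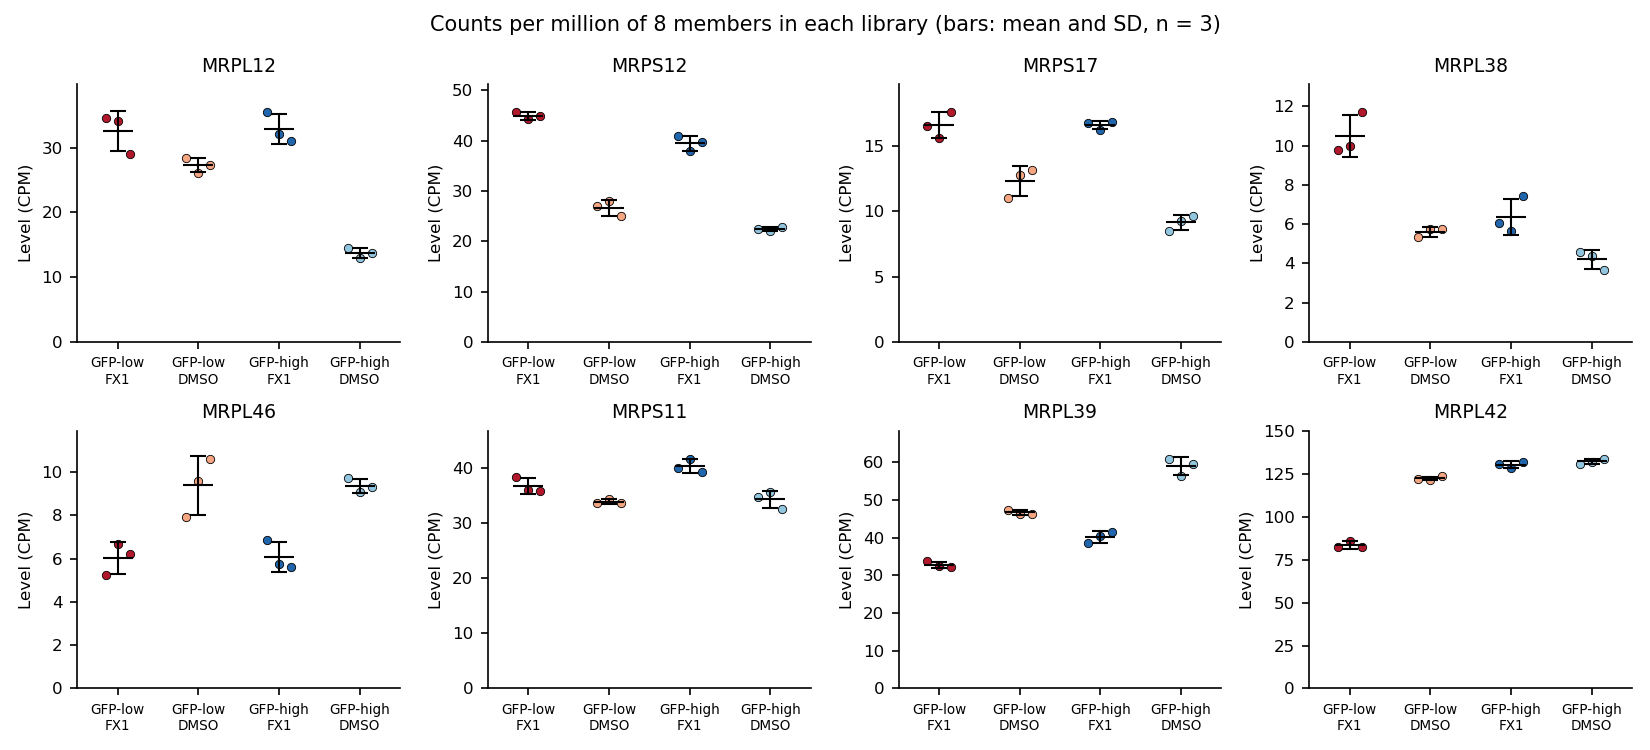
Level in CPM of 8 genes in each library, with the mean and SD of 3 libraries per group. MRPL12 is low in GFP-high DMSO alone, MRPL42 is low in GFP-low FX1 alone, and MRPL46 and MRPS11, transcribed from opposite strands of 1 short region, go opposite ways with FX1.

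The stalk of the large subunit recruits translation factors. It contains MRPL12, the counterpart of bacterial L7/L12, held in place by MRPL10 and MRPL11. MRPL12 (ENSG00000262814.8, hg38 chromosome 17, 81703367 to 81707517) had 34.6, 34.1 and 29.1 CPM in GFP-low FX1, 28.3, 26.1 and 27.3 in GFP-low DMSO, 35.5, 32.0 and 31.0 in GFP-high FX1 and 14.5, 13.0 and 13.6 in GFP-high DMSO. The 3 GFP-high DMSO libraries were low and every other library lay between 26.1 and 35.5 CPM. MRPL12 changed with FX1 by 1.27 ± 0.061 (log2, SE; edgeR adjusted p = 6.53e-53) in GFP-high cells, where it was the largest change of the 77. In GFP-low cells it was at 0.27 ± 0.053 (edgeR adjusted p = 1.34e-06), but at -0.05 after the GC and length correction. Between gates it was 0.998 ± 0.064 higher in GFP-low cells under DMSO (edgeR adjusted p = 9.2e-36). Under FX1 the gates differed by 0.00 ± 0.050 (edgeR adjusted p = 0.987), and by -0.41 after that correction. Of its exon bases 69.5% also belong to a same-strand protein-coding gene with 0 counts in every library, so reads from the shared bases cannot be told apart.

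The partners of MRPL12 in the stalk changed less. MRPL10 had 42.7, 42.2 and 40.8 CPM in GFP-low FX1, 42.8, 50.8 and 45.9 in GFP-low DMSO, 45.0, 43.1 and 43.5 in GFP-high FX1 and 44.9, 44.3 and 42.2 in GFP-high DMSO. Its groups overlapped in GFP-high cells (0.00 ± 0.043, edgeR adjusted p = 0.951) and it was at -0.15 ± 0.043 with FX1 in GFP-low cells, a call that was lost without GFP-low DMSO replicate 2 (-0.07). MRPL11 lay between 42.0 and 51.1 CPM in all 12 libraries. It changed by -0.09 ± 0.041 in GFP-low cells and by -0.13 ± 0.041 in GFP-high cells, both passing the test, though the GFP-low call was lost without any of 7 libraries in turn (GFP-low FX1 replicates 1 and 3, GFP-low DMSO replicates 2 and 3, and each GFP-high FX1 replicate), at -0.09 to -0.07, and the GFP-high call without GFP-high FX1 replicate 3 (-0.09).

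MRPS12, the counterpart of bacterial S12 at the decoding centre (chromosome 19, 38930944 to 38933168), was higher with FX1 in both gates. It had 45.7, 44.2 and 44.9 CPM in GFP-low FX1, against 27.0, 27.9 and 24.97 in GFP-low DMSO. In GFP-high cells it had 40.9, 37.9 and 39.7 CPM with FX1, against 22.4, 22.0 and 22.8 with DMSO. No FX1 library overlapped a DMSO library, and the change was 0.75 ± 0.048 (edgeR adjusted p = 5.06e-38) in GFP-low and 0.82 ± 0.051 (edgeR adjusted p = 1.31e-39) in GFP-high cells. No exon base of MRPS12 is shared. Its head-to-head neighbour SARS2, the mitochondrial seryl-tRNA synthetase, starts 181 bases away and was at -0.20 (not called) in GFP-low and -0.31 (called lower) in GFP-high cells.

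MRPS17, the counterpart of bacterial S17, had 16.6, 15.7 and 17.6 CPM in GFP-low FX1, 11.03, 12.8 and 13.2 in GFP-low DMSO, 16.8, 16.3 and 16.9 in GFP-high FX1 and 8.52, 9.26 and 9.69 in GFP-high DMSO. FX1 libraries of both gates met at about the same level while DMSO libraries differed. The change was 0.43 ± 0.074 in GFP-low cells (edgeR adjusted p = 6.03e-08) and 0.86 ± 0.079 in GFP-high cells (edgeR adjusted p = 3.59e-22). MRPS2 and MRPS26, of the small subunit, rose by 0.43 ± 0.0325 and 0.41 ± 0.048 in GFP-low cells and by 0.49 ± 0.0328 and 0.49 ± 0.052 in GFP-high cells.

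Among the large subunit genes that rose, MRPL38, a mitochondrion-specific protein of the central protuberance, was low and had 9.79, 9.96 and 11.7 CPM in GFP-low FX1, 5.32, 5.77 and 5.74 in GFP-low DMSO, 6.06, 5.64 and 7.41 in GFP-high FX1 and 4.60, 4.35 and 3.65 in GFP-high DMSO. GFP-low FX1 stood above all other libraries. Its changes of 0.89 ± 0.105 in GFP-low and 0.60 ± 0.119 in GFP-high cells were 0.48 and 0.36 after the GC and length correction. MRPL41, a mitochondrion-specific protein with the most GC-rich transcript of the set, had 39.3, 40.5 and 38.5 CPM in GFP-low FX1, against 25.8, 26.5 and 22.7 in GFP-low DMSO. The change of 0.65 ± 0.051 was not called after that correction (0.08). MRPL24, MRPL34 and MRPL43 rose in both gates, by 0.30, 0.34 and 0.35 in GFP-low cells and 0.41, 0.39 and 0.32 in GFP-high cells.

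MRPL46 and MRPL39, mitochondrion-specific proteins of the large subunit, fell furthest with FX1 in GFP-high cells. In GFP-low cells MRPL46 was followed by MRPL42 (-0.55), MRPS6, MRPS31 and MRPL39. MRPL46 had 5.24, 6.66 and 6.20 CPM in GFP-low FX1, against 7.94, 9.61 and 10.6 in GFP-low DMSO, and 6.88, 5.77 and 5.60 in GFP-high FX1, against 9.73, 9.07 and 9.30 in GFP-high DMSO. The groups did not overlap, and the changes were -0.66 ± 0.103 (edgeR adjusted p = 2.32e-09) in GFP-low and -0.61 ± 0.102 (edgeR adjusted p = 2.11e-08) in GFP-high cells. MRPS11, a small subunit gene with a bacterial counterpart, starts 63 bases away on the opposite strand. It had 38.3, 36.0 and 35.7 CPM in GFP-low FX1, against 33.6, 34.4 and 33.5 in GFP-low DMSO, and 40.0, 41.6 and 39.2 in GFP-high FX1, against 34.7, 35.5 and 32.5 in GFP-high DMSO. FX1 libraries were higher without overlap, by 0.12 ± 0.047 in GFP-low and 0.23 ± 0.046 in GFP-high cells. This region is the one whose MRPL46 side is printed above.

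MRPL39 had 33.8, 32.4 and 32.3 CPM in GFP-low FX1, 47.5, 46.3 and 46.4 in GFP-low DMSO, 38.5, 40.6 and 41.6 in GFP-high FX1 and 61.0, 56.3 and 59.6 in GFP-high DMSO. It was lower with FX1 in GFP-low (-0.50 ± 0.0435) and GFP-high cells (-0.55 ± 0.0408), and lower in GFP-low than in GFP-high cells under either treatment (-0.29 ± 0.0433 with FX1 and -0.33 ± 0.041 with DMSO). MRPS6 and MRPS31 led the small subunit falls. MRPS6 changed by -0.52 ± 0.042 in GFP-low and -0.46 ± 0.039 in GFP-high cells, and MRPS31 by -0.51 ± 0.0435 and -0.43 ± 0.0412. MRPL45, which lies at the exit of the peptide tunnel by the inner membrane, fell to 49.1, 50.5 and 48.2 CPM in GFP-low FX1, against 66.8, 61.7 and 68.5 in GFP-low DMSO. In GFP-high cells it had 61.2, 59.7 and 58.2 CPM with FX1, against 79.8, 75.5 and 67.8 with DMSO.

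The homologues of bacterial S18 differed from each other. MRPS18A, whose product sits in the large subunit, rose with FX1, by 0.34 ± 0.055 in GFP-low and 0.40 ± 0.058 in GFP-high cells, with 50.9% of its exon bases shared. MRPS18B fell by 0.42 in GFP-low and 0.29 in GFP-high cells on the log2 scale, with no shared bases. MRPS18C was at -0.26 ± 0.057 in GFP-low cells, where the GC and length correction ended the call and turned the sign (0.06), and at -0.04 ± 0.053 in GFP-high cells (not called, 0.13 after correction). Per kilobase, MRPS18B was the highest of them in every group, at 33.6, 45.1, 34.6 and 42.2 CPM per kb in GFP-low FX1, GFP-low DMSO, GFP-high FX1 and GFP-high DMSO, against 4.26, 5.05, 5.89 and 6.04 for MRPS18C. The exon length used includes shared bases, 50.9% of MRPS18A's and 40.2% of MRPS18C's. The part of shared bases in this order was not tested.

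Other members with known roles moved less. MRPS27, a small subunit protein with pentatricopeptide repeats, changed by -0.30 ± 0.0185 in GFP-low and -0.21 ± 0.0181 in GFP-high cells. MRPL44, an RNase III-like protein, was at -0.32 ± 0.042 in GFP-low cells and -0.15 ± 0.040 in GFP-high cells (0.000304 after correction). MRPL32, whose precursor is cleaved by the m-AAA protease, was at -0.20 ± 0.034 and -0.13 ± 0.032, and at 0.14 and 0.03 after correction. MRPL58, a peptidyl-tRNA hydrolase built into the large subunit, was at -0.23 ± 0.068 in GFP-low cells, a call lost after correction (-0.14), and, not called, at -0.03 ± 0.065 in GFP-high cells. MRPS36 was at -0.22 ± 0.074 in GFP-low cells, a call lost without GFP-low FX1 replicate 1 or GFP-low DMSO replicate 2 (-0.18 each), and -0.04 ± 0.071 (not called) in GFP-high cells, and at 0.30 and 0.16 after correction. MRPS24, at 1.49 to 2.25 CPM, passed no test.

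Between gates under DMSO, more of the genes were lower in GFP-low cells than higher. The comparison addressed the gates without FX1. Of 77 genes 12 were higher and 42 lower (15.6% and 54.5%), against 21.7% and 24.4% of all genes. The median log2 change was -0.14, against 0.03 over all genes. With library totals in place of TMM, a setting chosen after seeing the data, the median of all genes moved to 0.16 and that of the members to -0.00. Of the members 27 were then higher and 23 lower, beside 9043 of all 17859 genes called in either direction. A change of scaling shifts all genes of a comparison by about the same amount. The gap between the members' median and that of all genes is therefore kept by design and is no check of the scaling. The calls of MRPS25 (0.07 by library totals) and MRPS27, named after their values were seen, turned direction. After the GC and length correction 5 were higher (MRPL12, MRPS16, MRPS17, MRPS26 and MRPS28, named after their values were seen) and 37 lower. Of all 17557 genes with a GC value 3505 were then higher and 3758 lower. Past 1.5-fold there was only MRPL12, higher, 1 of 77 against 1.11% of all genes. Large subunit genes were higher in 6 and lower in 27 of 48 cases, small subunit genes in 6 and 15 of 29, and their medians were -0.15 and -0.11. After that correction the large subunit had 1 higher and 28 lower (median -0.14) and the small subunit 4 and 9 (median -0.05).

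The largest falls in GFP-low against GFP-high cells under DMSO were small. MRPL16, a counterpart of a bacterial large subunit protein, had 42.4, 47.2 and 45.2 CPM in GFP-low DMSO, against 64.3, 63.4 and 61.5 in GFP-high DMSO. The groups stood well apart, at -0.49 ± 0.040 (edgeR adjusted p = 6.59e-26). MRPS9, counterpart of a bacterial small subunit protein, had 56.9, 58.7 and 56.6 CPM in GFP-low DMSO, against 81.3, 80.5 and 80.6 in GFP-high DMSO. It was lower by a similar size, at -0.49 ± 0.035 (edgeR adjusted p = 1.06e-31). MRPL48 was at -0.41 ± 0.044, MRPL51 at -0.36 ± 0.026, MRPL35 at -0.33 ± 0.039, MRPS22 at -0.43 ± 0.044, MRPS15 at -0.30 ± 0.032 and MRPS34 at -0.30 ± 0.032. Besides MRPL12, the higher genes were led by MRPS17 at 0.43 ± 0.0845, MRPL38 at 0.41 ± 0.125, MRPS26 at 0.41 ± 0.054, MRPL2 at 0.30 ± 0.093 and MRPS12 at 0.26 ± 0.055. Calls for MRPL38 (0.15), MRPL2 (0.19), MRPS12 (0.10), MRPL34 (0.09) and MRPS18A (0.0950) were lost after the GC and length correction. MRPS27 was at -0.07 ± 0.018 but at 0.07 by library totals and 0.03 after correction.

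Under FX1 GFP-low cells were higher in 9 and lower in 43 of 77 genes (11.7% and 55.8%), against 30.2% and 26.7% of all genes, with a median log2 change of -0.15 against 0.08. By library totals 23 were higher and 37 lower. Of all 17859 genes 10772 were then called in either direction, with a median of 0.18. Past the 1.5-fold floor were 0 of 77 (against 4.08% of all genes); without a floor, 52 passed by edgeR and DESeq2 kept 50 of those calls. Large subunit genes were higher in 5 and lower in 27 of 48 cases and small subunit genes in 4 and 16 of 29, with medians of -0.14 and -0.15. After the GC and length correction these were 3 and 33 of 48 with a median of -0.18 in the large subunit, and 2 and 13 of 29 with a median of -0.06 in the small. The higher ones were then MRPL13, MRPL38, MRPL52, MRPS14 and MRPS25, named after their values were seen. Of all 17557 genes with a GC value 4259 were higher and 4405 lower after the correction. MRPL42, a mitochondrion-specific large subunit protein, fell furthest, with 82.7, 86.2 and 82.3 CPM in GFP-low FX1, against 131, 129 and 132 in GFP-high FX1 (-0.64 ± 0.026, edgeR adjusted p = 8.22e-66). The GFP-low FX1 libraries also stood below the GFP-low DMSO libraries (122, 122 and 124 CPM), whereas GFP-high FX1 and GFP-high DMSO (131, 132 and 134 CPM) lay at about 1 level. MRPS30 had 102, 103 and 105 CPM in GFP-low FX1, against 155, 156 and 154 in GFP-high FX1. That was a change of -0.59 ± 0.0245, or -0.18 after the GC and length correction. MRPL19 and MRPL30 were at -0.52 ± 0.028 and -0.52 ± 0.039, MRPL1 at -0.48 ± 0.052, MRPS35 at -0.49 ± 0.029, MRPS18C at -0.48 ± 0.055 and MRPS10 at -0.40 ± 0.031. Of the higher genes, MRPL38 was at 0.70 ± 0.099. MRPL41 (0.43 ± 0.049), MRPS26 (0.34 ± 0.046), MRPS12 (0.19 ± 0.044), MRPS18A (0.17 ± 0.053) and MRPL34 (0.14 ± 0.040) turned to -0.19, -0.04, -0.06, -0.04 and -0.01 after correction.

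**Figure D4:**
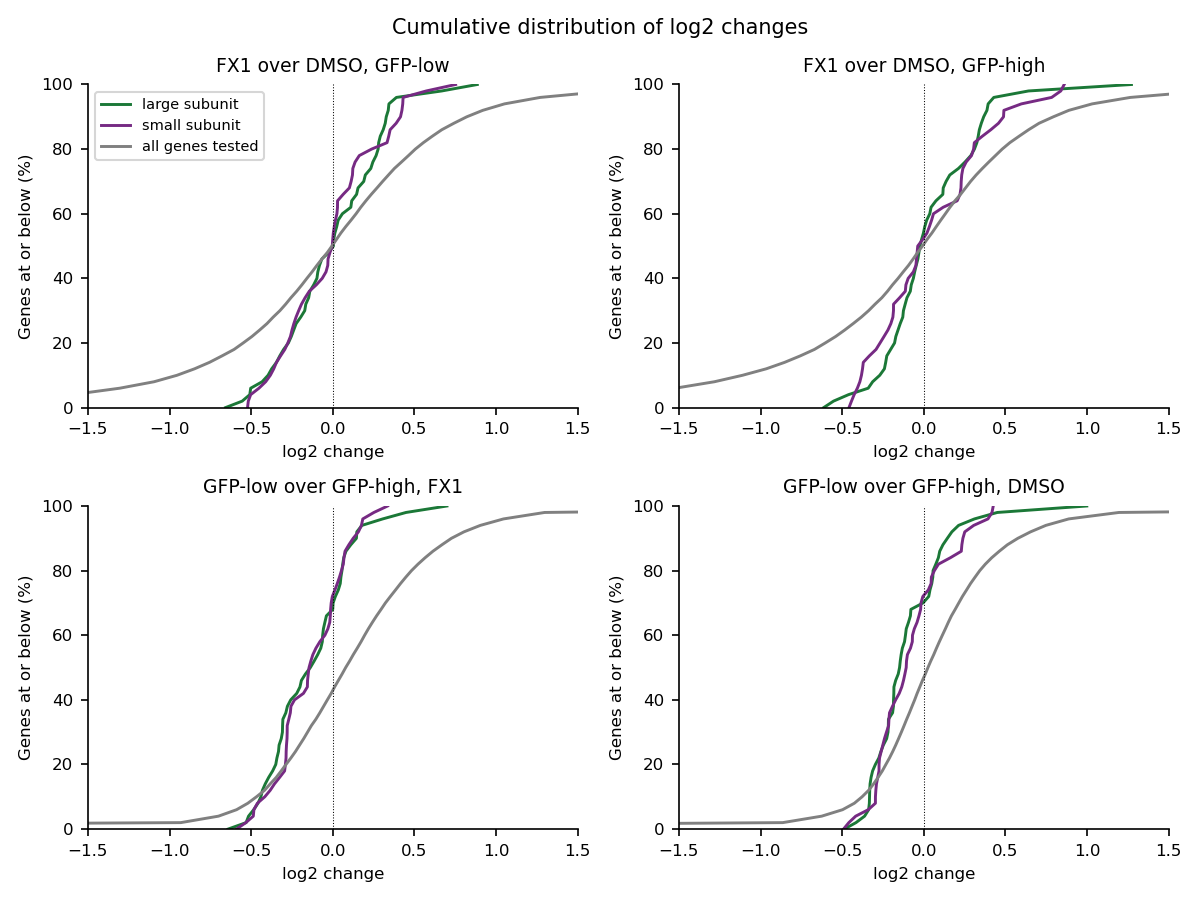
Cumulative distribution of log2 changes of large subunit genes, small subunit genes and all 17859 genes tested, in 4 comparisons. With FX1 the members' curves cross 50% near the same point as all genes and rise more steeply, whereas between gates they lie to the left of all genes.

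**Figure D5:**
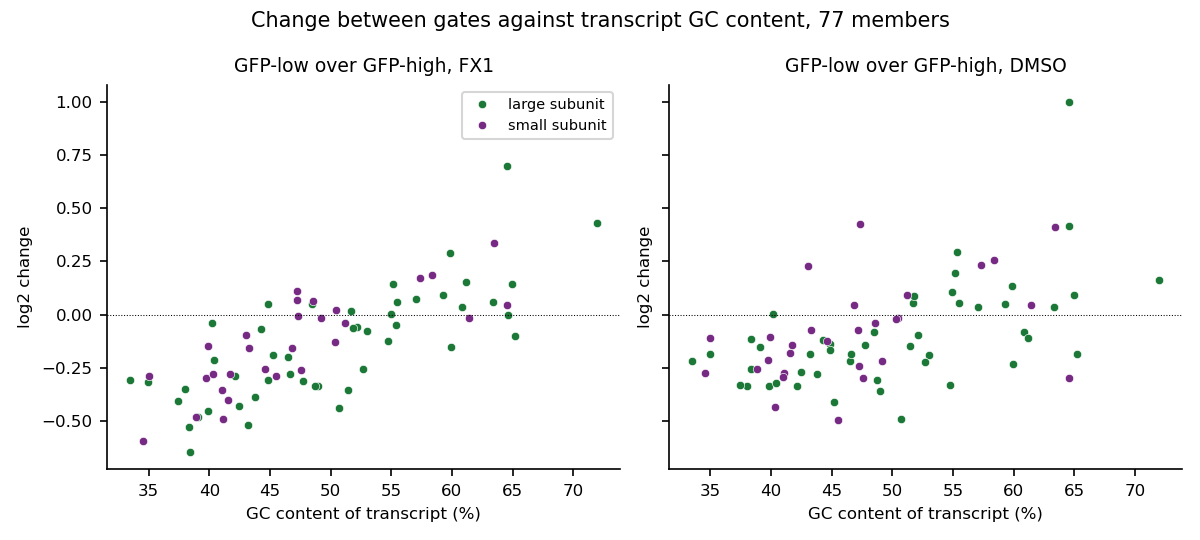
Log2 change between gates, GFP-low over GFP-high, of the 77 tested genes against the GC content of the longest transcript, with FX1 at left and DMSO at right. Changes are higher where GC content is higher under both treatments.

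The change between gates was larger, on the signed log2 scale, in genes of higher transcript GC content. Across the 77 genes Spearman's rho was 0.749 under FX1 and 0.513 under DMSO, against 0.52 and 0.313 over 17557 genes, and for the FX1 effect it was 0.58 in GFP-low and 0.33 in GFP-high cells, against 0.342 and 0.146. These points share libraries and base composition and are given as a description. Of the 25 genes with the lowest GC content (33.5% to 43.3%), 0 were higher and 23 lower in GFP-low cells under FX1, and 0 rose and 19 fell with FX1 in GFP-low cells. Among the 26 with the highest GC content (51.8% to 71.9%) these were 8 and 5, and 16 and 4. The part of GC content in these results was not tested.

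The difference of the FX1 effect, GFP-low minus GFP-high, passed the test in 30 genes, with 10 higher and 20 lower, against 14.8% and 16.5% of all genes. With a minimum of 50 counts in 3 libraries, 5605 of 12809 genes passed in either direction, and members kept 27 calls, lost 3 and gained 1. Scaled by library totals the members' counts were 7 and 25, and without mitochondrial-genome genes and genes above 1% of a library in the scaling, 7 and 26. Of all genes 5620 of 17859 and 5631 of 17822 were then called in either direction, with medians of -0.01 and -0.02. After the GC and length correction the members' counts were 12 and 16, against 2156 and 2793 of all 17557 genes with a GC value. Leaving out 1 library gave 5 to 11 higher and 14 to 27 lower, with 5 higher without GFP-high DMSO replicate 1 or replicate 3. Past 1.5-fold there was only MRPL12, lower at -0.997 ± 0.082 (edgeR adjusted p = 1.06e-24), 1 of 77 against 0.846% of all genes. MRPL42 followed at -0.53 ± 0.037 (edgeR adjusted p = 3.15e-32) and MRPS17 at -0.43 ± 0.109 (edgeR adjusted p = 0.000537). In the other direction was MRPS34, a small subunit protein, at 0.34 ± 0.045 (edgeR adjusted p = 1.16e-11). MRPS34 had 72.4, 74.8 and 75.2 CPM in GFP-low FX1, 78.4, 75.6 and 71.9 in GFP-low DMSO, 72.0, 70.9 and 72.1 in GFP-high FX1 and 94.0, 91.7 and 92.3 in GFP-high DMSO. The GFP-high DMSO libraries were high and the others about level. It shares 31.2% of its exon bases with EME2 on the opposite strand, which rose by 1.58 and 1.29 with FX1 in GFP-low and GFP-high cells, and strand use in counting was not stated. The part of EME2 reads in the MRPS34 count was not tested. The median of this difference was -0.00 in the large and -0.08 in the small subunit, and -0.03 and -0.06 after the GC and length correction.

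Genes with a bacterial counterpart and mitochondrion-specific genes both moved in either direction. With FX1 in GFP-low cells 16 of 44 genes with a counterpart rose and 17 fell, against 10 and 15 of 32 mitochondrion-specific genes. In GFP-high cells these were 19 and 14, against 10 and 13. Of all genes tested 33.7% rose and 34.3% fell in GFP-low cells, and 33.8% and 34.6% in GFP-high cells. Medians were 0.01 and -0.05 in GFP-low and 0.01 and -0.06 in GFP-high cells. The difference between the classes was not tested. Restricting to the 37 genes that share no exon bases gave 13 risers and 18 fallers in GFP-low and 15 and 11 in GFP-high cells, to be read beside the same shares of all genes.

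Head-to-head neighbours moved both with and against the members. A protein-coding gene on the opposite strand starts within 1000 bases of 28 of the genes, and of 25 separate pairs with both genes tested, 14 had both called with FX1 in each gate. The pair moved the same way in 9 of 14 in GFP-low and 8 of 14 in GFP-high cells. Of all genes tested 33.7% rose and 34.3% fell in GFP-low cells, and 33.8% and 34.6% in GFP-high cells. Pairs of other genes were not counted, so these numbers show nothing particular to the members. Some of these pairs share exon bases. MRPL43 and TWNK, the mitochondrial DNA helicase, rose together (TWNK by 0.75 and 0.67 in GFP-low and GFP-high cells). Of MRPL43's exon bases 36.9% are shared with SEMA4G or TWNK on the opposite strand. As strand use in counting was not stated, these counts may not be separate. MRPL27 rose, by 0.19 and 0.14, while EME1 fell, at -0.75 and -1.14. MRPL36 fell, at -0.37 and -0.45, while NDUFS6, a complex I subunit, was at 0.16 and, not called, 0.04.

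The counts of the gene lists that follow stand beside 33.7% of all genes higher and 34.3% lower with FX1 in GFP-low cells, and 33.8% and 34.6% in GFP-high cells. Counts after the GC and length correction stand beside 6335 higher and 5239 lower of 17557 genes in GFP-low cells, and 6514 and 5565 in GFP-high cells. Of the mitoribosomal proteins without an MRP symbol, DAP3, AURKAIP1, CHCHD1, PTCD3 and GADD45GIP1, 2 rose and 1 fell with FX1 in GFP-low cells and 3 rose and 1 fell in GFP-high cells. PTCD3, a small subunit protein with pentatricopeptide repeats, was at -0.33 and -0.41, AURKAIP1 at 0.32 and 0.22, and GADD45GIP1, a large subunit protein, at 0.55 and, not called, 0.05. DAP3 (0.11) and CHCHD1 (0.17) rose in GFP-high cells and were at 0.00 and -0.10 in GFP-low cells, not called. Assembly factors rose in 9 and fell in 7 of 26 cases in GFP-low cells, and in 11 and 9 in GFP-high cells, with medians of 0.03 and 0.06 (14 and 8, and 12 and 5, after the GC and length correction). The GTPase MTG1, which acts on the large subunit, was at 0.95 and 0.73, and TFB1M, which dimethylates the small subunit ribosomal RNA, at -0.84 and -0.78. Translation factors rose in 4 and fell in 4 of 16 cases in GFP-low, and in 4 and 8 in GFP-high cells, which became 8 and 3, and 7 and 5, after correction. Among them LRPPRC, which stabilizes mitochondrial messages, was at -0.39 and -0.26, and the recycling factor MRRF at -0.26 and -0.40.

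Genes of mitochondrial transcription and RNA processing were mostly higher with FX1: 11 of 18 rose and 2 fell (TFAM and PNPT1) in GFP-low cells and 14 rose and 2 fell (MTERF1 and PNPT1) in GFP-high cells, with medians of 0.17 and 0.29, and 16 rose and 1 fell in each gate after correction. The mitochondrial RNA polymerase POLRMT was at 1.18 and 0.74, FASTK at 1.13 and 0.77, and the RNase P component HSD17B10 at 0.49 and 0.70 in GFP-low and GFP-high cells. Of 11 nuclear regulators 6 rose and 2 fell (GABPA and GABPB1) in GFP-low cells, and 7 rose and 2 fell (GABPA and PPRC1) in GFP-high cells (5 and 3 in GFP-low cells after correction). GABPB2, a subunit of GABP, was at 1.31 and 0.99, while GABPA, its DNA-binding subunit, was at -0.86 and -0.40. The coactivator PPARGC1B was at 1.09 and 0.96. Of 15 protease and import genes 9 rose in each gate and 6 and 5 fell. TOMM20, an import receptor, was at -0.95 and -0.78, and TOMM40, the import channel, at 0.90 and 0.91.

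RNAs of the mitochondrial genome, which the mitoribosome reads or contains, were counted in the same libraries. With FX1, 7 of 15 rose and 6 fell in GFP-low cells (13 and 1 after correction), and 2 rose (MT-RNR1 and MT-RNR2) and 13 fell in GFP-high cells, with medians of -0.01 and -0.94. In GFP-low against GFP-high cells under DMSO 15 of 15 were lower (median -0.99), against 24.4% of all genes lower and 21.7% higher. Under FX1 8 were higher and 5 lower (median 0.07), against 30.2% and 26.7% of all genes, and those lower were MT-RNR1, MT-RNR2, MT-ND2, MT-ND6 and MT-ATP8. The ribosomal RNAs MT-RNR1 and MT-RNR2, measured after ribosomal RNA depletion, were at -2.69 and -2.34 in GFP-low against GFP-high cells under FX1 and at -2.00 and -2.22 under DMSO. The difference of the FX1 effect had a median of 1.03 over these 15 RNAs, against -0.04 over the 77 protein genes and 0.02 over all genes.

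Over the 4 groups, the highest group mean was in GFP-low FX1 for 17 of 77 genes, in GFP-low DMSO for 4, in GFP-high FX1 for 19 and in GFP-high DMSO for 37. The lowest group mean was in GFP-low FX1 for 37, in GFP-low DMSO for 16, in GFP-high FX1 for 6 and in GFP-high DMSO for 18. The highest and lowest group means were within 1.5-fold for 59 of 77 genes, with a median ratio of 1.33. These counts were not taken over all genes, so they show nothing particular to the members. They are on the TMM scale, and the split between gates under DMSO moved with the scaling.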

How the data were processed

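RNA was measured by sequencing in 12 Raji libraries, 3 for each of 4 groups. Ribosomal RNA was removed from total RNA before library preparation with a KAPA kit, per the labels' protocols. The tools FastQC, STAR, featureCounts of Subread and R 4.2.1 and the build hg38 are named in the submitters' processing notes. Strand setting, annotation release and other versions are not given in the sources used here. The authors deposited a table of unnormalized read counts for each gene, per the file headers. Of 60710 lines, 3 formed a broken record and were left out, leaving 60707 genes. Depth was 20454028 to 42556661 counts, and intervals cover spread between libraries only.

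Counts were tested with edgeR 4.0.16 (R 4.3.3): filterByExpr, TMM, a quasi-likelihood fit with robust estimation and a term per group on all 12 libraries (8 residual degrees of freedom). P-values were adjusted by Benjamini-Hochberg over 17859 genes, with a threshold of 0.05. glmTreat tested against 1.5-fold. Levels are TMM-scaled CPM computed here from those counts. The fit was tested on simulated data. Exon overlaps, distances to neighbours and exon length came from the coordinates and lengths in the deposited count table. Gene type, transcript GC content and transcript length came from GENCODE 29, whose build is that of hg38. Promoters came from RefSeq (GRCh38.p14). GC content was known for all 77 tested genes.

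The genes, the 11 gene lists, with 134 entries, and the tests were chosen with earlier results of these data known. Named genes were, per comparison and subunit, the 4 or fewer largest rises and falls that passed the test, averaged 2 or more in log2 CPM and had groups without overlap (allowed for the difference of the FX1 effect), members with known roles, the 3 highest and lowest per kilobase, untested genes, and up to 3 called genes with the largest change per list. Not every gene taken is printed. MRPS11 and the other head-to-head pairs were taken for their position.

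Alternatives were DESeq2 1.42.0 and its size factors, no low-count filter, a minimum of 50 counts in 3 libraries, fits on the compared groups alone, a replicate block, scaling without 38 mitochondrial-genome and abundant genes, a per-library correction for GC content and transcript length, each library left out, and, chosen after seeing the data, library totals.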

Additional observations from a re-analysis of the deposited data

Results flagged for a closer look

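The FX1 effect differed between GFP-low and GFP-high cells by edgeR's quasi-likelihood test of the difference itself, GFP-low minus GFP-high, for 20 of the named genes. Genes could be named for passing this same test, so that number follows partly from the naming. Among the 77 members 39% passed, against 31.3% of all genes. That gap depended on the low-count filter. With a minimum of 50 counts in 3 libraries, 5605 of 12809 genes passed, and members kept 27 calls, lost 3 and gained 1. No excess among the members can be read from these shares. On the log2 scale the difference was -0.997 for MRPL12, -0.53 for MRPL42, -0.43 for MRPS17, -0.35 for MRPL2, -0.33 for MRPL30, -0.32 for MRPS28 and -0.32 for MRPS30. It was -0.23 for MRPS18C, -0.17 for MRPL44, -0.15 for MRPL10, -0.13 for MRPS18B and -0.0875 for MRPS27. It was 0.34 for MRPS34, 0.27 for MRPL41, 0.22 for MRPL48, 0.22 for MRPL52, 0.21 for MRPL20, 0.21 for MRPS9, 0.20 for MRPS5 and 0.15 for MRPS22. After the GC and length correction, MRPL41 (0.07), MRPS30 (-0.04), MRPS18C (-0.07), MRPL44 (-0.14), MRPS28 (-0.24) and MRPS27 (-0.06) no longer passed, whereas MRPL12 (-1.14), MRPL42 (-0.38), MRPS17 (-0.43), MRPS34 (0.20) and MRPS9 (0.24) did. MRPL52 and MRPS22 lost their calls under most alternatives. MRPL10 lost its call under 7, among them the DESeq2 test (-0.16) and leaving out GFP-low DMSO replicate 2 (-0.08), and MRPS18B under 5 (-0.14 to -0.0975). Leaving out 1 library also ended the call of MRPL2 (GFP-low FX1 replicate 3, GFP-low DMSO replicate 1 or 3, -0.32 to -0.25), MRPS18C (GFP-low FX1 replicate 1, GFP-low DMSO replicate 2 or GFP-high FX1 replicate 1, -0.19 to -0.17), MRPL44 (GFP-low FX1 replicate 1, -0.15, or GFP-low DMSO replicate 2, -0.12), MRPS28 (GFP-low FX1 replicate 1, -0.28), MRPL41 (GFP-high DMSO replicate 3, 0.19) and MRPL48 (GFP-high DMSO replicate 1 or 3, 0.15 each). The causes of these differences were not tested.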

How the results depend on the processing

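Counts of called genes moved by more than 1.5 times under the following settings. The 1.5-fold floor left 3 higher and 0 lower with FX1 in GFP-high cells, 2 and 0 in GFP-low cells, 1 and 0 for GFP-low against GFP-high under DMSO, 0 and 0 under FX1. It left 0 and 1 for the FX1 effect of GFP-low minus GFP-high cells. The GC and length correction left 21 lower with FX1 in GFP-low cells, and 5 higher between gates under DMSO and 5 under FX1. Library totals, chosen after seeing the data, gave 17 lower with FX1 in GFP-high cells, 27 higher and 23 lower between gates under DMSO, and 23 higher under FX1. The medians of all genes in these comparisons were then 0.09, 0.16 and 0.18, so the shift was not particular to the members. A filter of at least 50 counts gave 15 higher between gates under FX1. Leaving out each library gave, for higher and lower, 27 to 29 and 25 to 28 (FX1, GFP-high), 23 to 27 and 29 to 35 (FX1, GFP-low), 10 to 13 and 39 to 43 (gates, DMSO), 8 to 9 and 40 to 48 (gates, FX1), and 5 to 11 and 14 to 27 for the difference. The lowest count, 5, came without GFP-high DMSO replicate 1 and also without replicate 3.

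Direction turned for named genes under the GC and length correction. With FX1 in GFP-high cells these were MRPL44 (0.000304), MRPL32 (0.0283), MRPS18C (0.13) and MRPS36 (0.16), and in GFP-low cells MRPL12 (-0.0456), MRPL32 (0.14), MRPS18C (0.0557), MRPS30 (0.28) and MRPS36 (0.30). Between gates under DMSO it was MRPS27 (0.0306, and 0.0674 by library totals). Under FX1 they were MRPL41 (-0.19), MRPL34 (-0.0116), MRPS26 (-0.0424), MRPS12 (-0.0568), MRPL12 (-0.41), MRPS18A (-0.0427) and MRPS36 (0.16). The cause was not tested. Of the values of named genes without 1 library, 1541 kept their call or lack of one, and 56 lost and 23 gained a call. In 0 did the sign turn with a call in either fit. A change of sign in a value called in neither fit was counted as kept. Calls turned under that correction for MRPL3 with FX1 in GFP-high cells, for MRPL4, MRPL22, MRPL32, MRPL50, MRPS30, MRPS35 and MRPS36 in GFP-low cells, for MRPL4 and MRPL41 between gates under DMSO, and for MRPL4, MRPL13, MRPL41 and MRPS14 under FX1. The large minus small subunit difference of medians became -0.11 (FX1, GFP-high), -0.0932 (FX1, GFP-low), -0.0960 (gates, DMSO) and -0.12 (gates, FX1) under the correction. Under the other settings, all but the position-based one added after seeing the data, it moved by less than 0.0506. That value is the pooled SD, between libraries of a group, of the large minus small difference in median log2 CPM, which is a different measure. Settings that only rescale libraries shift both subunits alike, so they could not move the difference of medians. Without 1 library it ran from -0.0191 to 0.0174, -0.0274 to 0.0398, -0.0737 to -0.00907, -0.0113 to 0.0353 and 0.0630 to 0.10 in the same order, the last for the FX1 effect of GFP-low minus GFP-high cells. No pairing by replicate number was seen. Same-numbered libraries correlated at -0.0117 to 0.0172 (18 pairs) and others at -0.021 to 0.0229 (36 pairs). Sampling noise of low counts can hide a shared culture or batch in these correlations, so pairing is not excluded. The replicate block lost 0 calls of the 56, 59, 54, 52 and 30 in the 5 comparisons. Low counts limit MRPL53 and MRPS24 most. For MRPL53, 99.4% of exon bases also belong to other genes, a limit that greater depth would not lift.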
